A study of Mus musculus with 23 samples.

Results

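The miR-130/miR-301 and miR-148/miR-152 families are 2 groups of microRNAs whose short targeting sequences differ but share a run of 6 bases. Their 6 mature members on the panel were chosen by identifier, with no measured value in the rule: miR-130a-3p (MIMAT0000141), miR-130b-3p (MIMAT0000387), miR-301a-3p (MIMAT0000379), miR-148a-3p (MIMAT0000516), miR-148b-3p (MIMAT0000580) and miR-152-3p (MIMAT0000162). They are 6 of 602 mouse microRNA probes read on a NanoString nCounter panel, an assay that counts barcoded probes on total RNA without amplification. All cells were sorted out of lungs of C57BL6 mice of genotype WT (wild type), and the labels name no treatment. The 13 AT2 samples are labelled type II pneumocytes at every stage, the name of the surfactant-producing cells of the alveolus. Their descriptions give CD326 as the sorting marker, and whether the sorted cells were of that type at each stage was not checked. The 10 EC samples are endothelial cells, which line the vessels, sorted on CD31. Each was taken at 6 stages: E16.5 and E18.5, which are embryonic days 16.5 and 18.5, followed by P1, P7, P14 and P28, named for the day after birth. There were 2 samples per cell type and stage, except for AT2 cells at P28 (3 samples) and EC at E18.5 and P1 (1 sample each). The samples of a group carry different specimen IDs, but the labels do not state that these are separate animals. The tests therefore weigh differences against a sample-to-sample spread whose source, between animals or technical, is not known.

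A microRNA guides an Argonaute protein to messenger RNAs that pair with its seed, bases 2 to 8 from its 5′ end, and those messages are then translated less or degraded. In human endothelial cells miR-130a is known to lower the homeobox proteins GAX and HOXA5, which restrain angiogenesis. The miR-130/miR-301 family has been studied in pulmonary hypertension as a repressor of PPARγ. The miR-148/miR-152 family is best known for repressing the DNA methyltransferase DNMT1, and miR-148a for lowering the LDL receptor in liver. The mature sequences follow, since the relation between the families lies in them. They are RefSeq's (build GRCm38.p6), written 5′ to 3′ with the seed in capitals, and 6 of 6 members matched by name.
miR-130a-3p: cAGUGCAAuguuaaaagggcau
miR-130b-3p: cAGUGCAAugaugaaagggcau
miR-301a-3p: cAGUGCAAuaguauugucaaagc
miR-148a-3p: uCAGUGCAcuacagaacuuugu
miR-148b-3p: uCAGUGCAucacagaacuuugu
miR-152-3p: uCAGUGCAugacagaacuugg

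The 3 members of the miR-130/miR-301 family share the seed AGUGCAA, and the 3 members of the miR-148/miR-152 family share CAGUGCA. Both seeds hold the run AGUGCA, placed 1 base further from the 5′ end in the miR-148/miR-152 family. Outside the seed, miR-130a-3p and miR-130b-3p differ at 2 positions, U11A and A13G, counted from the 5′ end with the base of miR-130a-3p first. miR-301a-3p differs from miR-130a-3p at 10 of the 22 positions they share. miR-148a-3p and miR-148b-3p differ at 2 positions (C9U and U10C), and miR-148b-3p and miR-152-3p at 2 (C10G and U20G). Probes for sequences this close may read each other's microRNA, and the size of such cross-reading was not measured here.

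The 6 hairpins lie at 6 separate places. In RefSeq's annotation of GRCm38.p6, miR-130a-3p is at chr2:84741116-84741137 (minus strand) and its hairpin overlaps no other gene. miR-130b-3p is at chr16:17124071-17124092 (minus strand), within 2610318N02Rik, and its hairpin lies 257 bases from that of Mir301b, a further family member. miR-301a-3p is at chr11:87113054-87113076 (plus strand) within Ska2, a gene of the spindle and kinetochore complex. miR-148a-3p is at chr6:51269829-51269850 (minus strand) within the gene model Gm38821. miR-148b-3p is at chr15:103285185-103285206 (plus strand) within Copz1, and miR-152-3p at chr11:96850439-96850459 (plus strand) within Copz2. Copz1 and Copz2 are paralogs that encode the zeta subunits of the COPI vesicle coat.

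Deposited values are probe counts times 1 factor per sample, called scaled values here, so a member can be followed across samples while levels of different probes are not compared. The recovered counts behind them totalled 26640 (AT2 P28 replicate 1) to 571715 (EC P1 replicate 1) per sample. A probe counted as above background where it exceeded the mean plus 2 SD of 8 low control probes of its sample, and 302 probes that did so in at least 2 samples were tested. All 6 members passed, and 5 of them were above background in all 23 samples. The other, miR-130b-3p, was above it in 12 AT2 samples and 8 EC samples. In EC P14 replicate 2 the highest probe of EC, MIMAT0000138, took 23.4% of the signal, against 31.9% to 44.9% in the other EC samples. In AT2 cells a single probe, MIMAT0003484, took 62.8% in P28 replicate 3 and 34.0% in P1 replicate 2. The highest probe of every other AT2 sample took 12.4% or less. Markers of the sorted cell types could not be checked because the files do not pair identifiers with names, and the mix of cells in each sample was not measured.

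**Figure D1:**
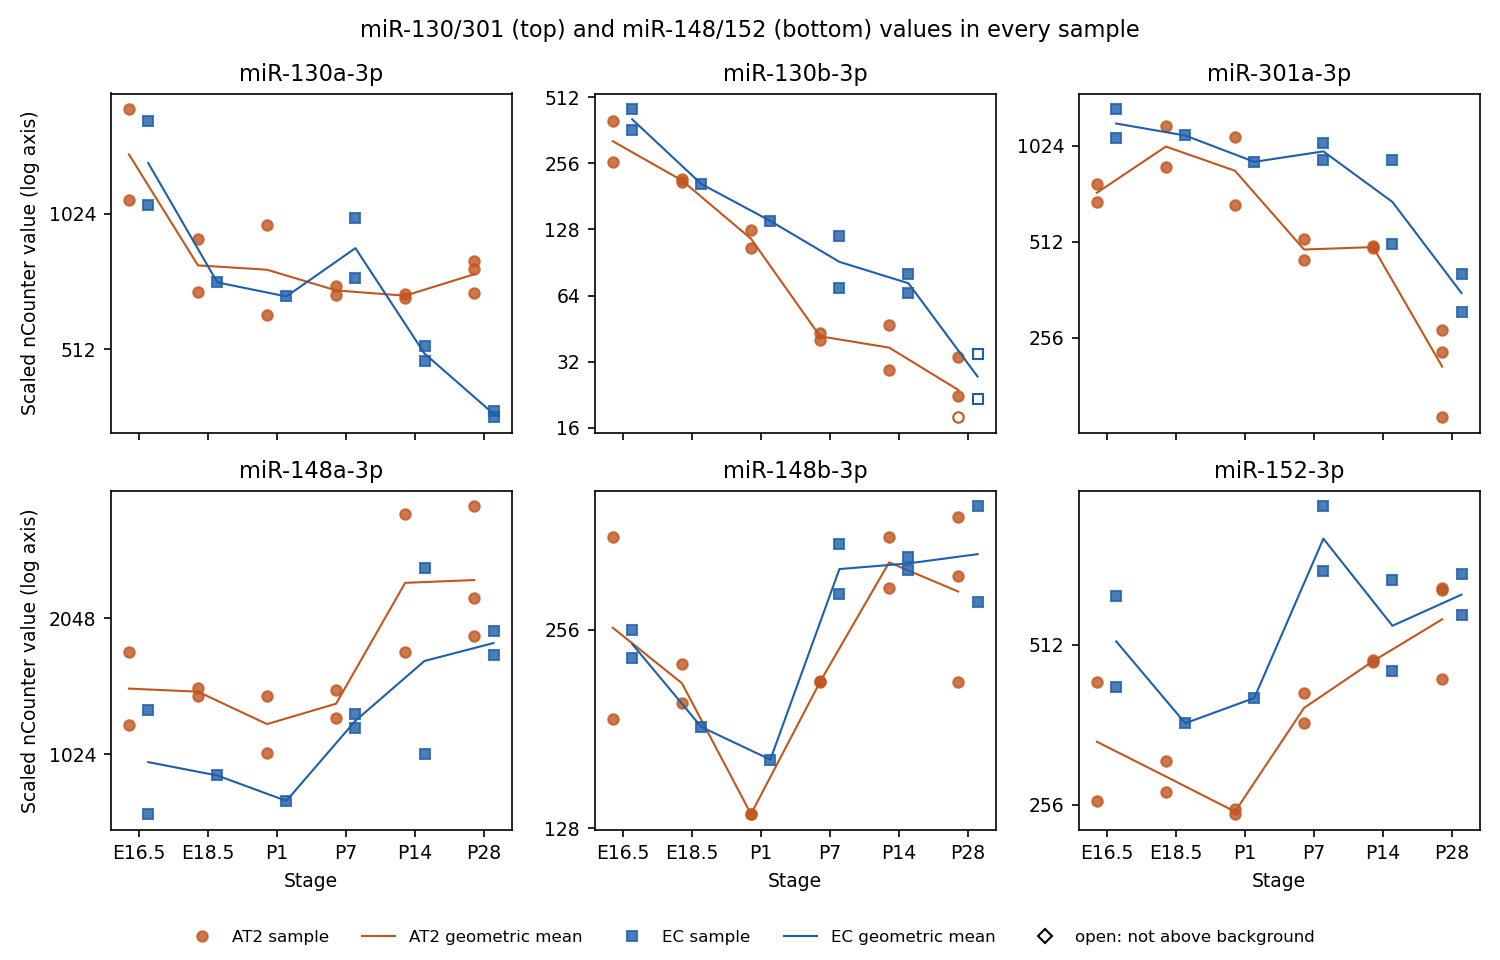
Scaled nCounter value (log axis, its own range in each panel) of the 6 members against stage, with 1 point per sample, AT2 samples as circles left of EC samples as squares, lines through the geometric means of each stage and open symbols for samples not above background. miR-130b-3p steps down with stage in both cell types, to 17.9 to 33.8 in AT2 and 21.6 to 34.7 in EC at P28, while miR-148a-3p is highest at P14 and P28.

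miR-130b-3p fell with age in both cell types under every setting run. Between the late stages (P7, P14 and P28) and the early stages before birth (E16.5 and E18.5) it fell 7.68-fold in AT2 cells and 5.02-fold in EC on the deposited scale. On that scale all probes had a median late minus early log2 difference of -0.64 in AT2 cells and -0.57 in EC. There 3 of 3 miR-130/miR-301 members were called lower late in each cell type, and of the miR-148/miR-152 family only miR-152-3p in AT2 cells passed the test, upward. Other scalings did not all give the same split. After samples were shifted to 1 median, and by edgeR and DESeq2, 3 of 3 miR-148/miR-152 members were called higher late in each cell type. Higher calls over all 302 tested probes rose as well, from 34 in AT2 cells and 28 in EC as deposited. They were 77 and 52 after the shift, 64 and 47 by edgeR, and 67 and 52 by DESeq2. Under the same 3 settings miR-130a-3p lost its call in both cell types and miR-301a-3p in EC, and miR-301a-3p also lost it in AT2 cells under the shift and by edgeR. Quantile normalization kept 3 of 3 miR-130/miR-301 members called lower in each cell type. Of the other family it called miR-148b-3p in both cell types and miR-152-3p in AT2 cells, all higher. Of all probes it called 62 higher and 65 lower in AT2 cells, and 47 higher and 44 lower in EC. Scaling to the microRNA total called no miR-148/miR-152 member in either cell type. It kept the lower calls of miR-130b-3p in both and of miR-301a-3p in AT2 cells. Relative to the median of all probes on the deposited scale, the miR-148/miR-152 members stood 0.86 to 1.26 above it. With a common floor (low values raised to the highest background limit of any sample) that median was 0.00 in both cell types. As deposited, 4 of 6 members over both families were called in AT2 cells (1 higher, 3 lower). Of the 302 tested probes 51.3% were called there, 11.3% higher and 40.1% lower. In EC 3 of 6 were called, all lower, against 37.1% of all probes, 9.27% higher and 27.8% lower. In bulk RNA of sorted cells, fewer cells of a type that holds a microRNA and less of it per cell cannot be told apart.

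miR-130b-3p values in AT2 samples were 400 and 260 at E16.5, then 217 and 211 at E18.5, 127 and 106 at P1, 43.2 and 40.4 at P7, 46.8 and 29.4 at P14, and 22.3, 33.8 and 17.9 at P28. In EC they were 363 and 452 at E16.5, then 206 at E18.5, 140 at P1, 119 and 69.6 at P7, 80.3 and 66.0 at P14, and 34.7 and 21.6 at P28. Every late sample lay below every early sample in both cell types, with the P1 samples between them. Late and early samples were separated, in either direction, for 32.1% of tested probes in AT2 cells and 22.8% in EC. On the log2(value + 1) scale, which understates changes of low microRNAs, late minus early was -2.94 ± 0.26 (SE) in AT2 cells (limma, Benjamini-Hochberg adjusted p = 5.37e-08 over 302 probes). It was -2.33 ± 0.30 in EC (limma, adjusted p = 1.70e-05). Of the late samples, AT2 P28 replicate 3 and both EC P28 samples were not above background, and the value of AT2 P28 replicate 1 rests on 3 counts, in a sample whose background limit was 1 count. With each sample below its background limit set to that limit, the late geometric mean was still at least 7.77-fold lower than the early one in AT2 cells and at least 4.45-fold lower in EC.

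miR-301a-3p in AT2 samples was 779 and 682 at E16.5, 1177 and 880 at E18.5, 670 and 1090 at P1, 449 and 521 at P7, 489 and 496 at P14, and 230, 270 and 144 at P28. In EC it was 1081 and 1335 at E16.5, then 1102 at E18.5, 911 at P1, 1047 and 922 at P7, 920 and 505 at P14, and 405 and 308 at P28. Late and early samples did not overlap in either cell type, and at P7 the mean was 485 in AT2 samples and 985 in EC samples. Late minus early was -1.23 ± 0.24 in AT2 cells, a 2.34-fold fall (limma, adjusted p = 0.000373). In EC it was -0.89 ± 0.28, a 1.86-fold fall (limma, adjusted p = 0.0228). The EC call was lost without EC E16.5 replicate 2 (-0.82), without EC P28 replicate 2 (-0.83), or with 3 EC samples left out together (-0.68; replicate 1 of P1 and replicate 2 of both P14 and P28).

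miR-130a-3p, a family member with a known role in endothelium, was highest at E16.5, with 1753 and 1101 in AT2 cells and 1072 and 1648 in EC. From E18.5 on, AT2 samples ranged from 611 to 970 with stage means of 674 to 794. EC samples were at 1002 and 738 at P7, 482 and 521 at P14, and 374 and 362 at P28, the lowest values of any group. Late and early samples overlapped in both cell types. Late minus early was -0.57 ± 0.22 in AT2 cells (limma, adjusted p = 0.0396) and -0.85 ± 0.26 in EC (limma, adjusted p = 0.0174). The EC call was lost without EC E16.5 replicate 2 (-0.70), and the AT2 call without any 1 of the 11 AT2 samples compared other than E16.5 replicate 2 and P28 replicate 3 (-0.67 to -0.40 without each of these 9). In AT2 cells the difference became 0.32 when samples were shifted to 1 median over the tested probes, and 0.01 by edgeR.

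The 3 miR-148/miR-152 members had positive late minus early differences in both cell types, of which that of miR-152-3p in AT2 cells passed the test. miR-148a-3p in AT2 samples was 1728 and 1186 at E16.5, 1439 and 1380 at E18.5, 1034 and 1381 at P1, 1236 and 1422 at P7, 3485 and 1728 at P14, and 3628, 2270 and 1872 at P28. In EC it was 754 and 1285 at E16.5, then 920 at E18.5, 808 at P1, 1259 and 1174 at P7, 1025 and 2649 at P14, and 1922 and 1697 at P28. Late and early samples overlapped in both cell types, and the pairs at P14 were far apart. The AT2 P14 sample with the higher value (3485) and the EC P14 sample with the higher value (2649) carry the same specimen ID. Late minus early was 0.50 ± 0.29 in AT2 cells (limma, adjusted p = 0.151, 95% interval -0.11 to 1.11) and 0.69 ± 0.34 in EC (limma, adjusted p = 0.106, 95% interval -0.02 to 1.40), and the EC difference was called without EC P14 replicate 1 (0.92).

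miR-148b-3p had its lowest stage mean at P1 in both cell types (1 sample in EC), with no stage difference called as deposited. Its stage means in AT2 cells were 271, 213, 135, 213, 325 and 300 over the 6 stages, and in EC 244, 182, 163, 317, 322 and 338. Both AT2 P1 samples (134 and 135) lay below every other AT2 sample, and how many tested probes do the same was not counted. In EC every late sample (282 to 394) lay above every early one (182, 232 and 255). Such a separation, in either direction, held for 22.8% of tested probes. The late minus early difference of 0.62 ± 0.27 in EC did not pass (limma, adjusted p = 0.0754), nor did that of 0.22 ± 0.23 in AT2 cells (limma, adjusted p = 0.428). The test for any difference among the 6 stages called it in neither cell type (limma F-test, adjusted p = 0.0611 in AT2 cells and 0.232 in EC).

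miR-152-3p in AT2 samples was 260 and 435 at E16.5, 271 and 310 at E18.5, 246 and 252 at P1, 416 and 365 at P7, 479 and 476 at P14, and 654, 649 and 441 at P28. In EC it was 427 and 633 at E16.5, then 365 at E18.5, 407 at P1, 935 and 705 at P7, 677 and 457 at P14, and 583 and 696 at P28. Late and early samples overlapped in both cell types, through 1 E16.5 sample in each. The late minus early difference was 0.60 ± 0.23 in AT2 cells (limma, adjusted p = 0.0357), a 1.52-fold rise, and 0.60 ± 0.26 in EC (limma, adjusted p = 0.0774), called there without EC P14 replicate 2 (0.69). The AT2 call was lost without any 1 of the same 9 AT2 samples as that of miR-130a-3p (0.42 to 0.65), under scaling to the total (0.44), with no filter (0.60) and with P1 counted as late (0.37).

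**Figure D2:**
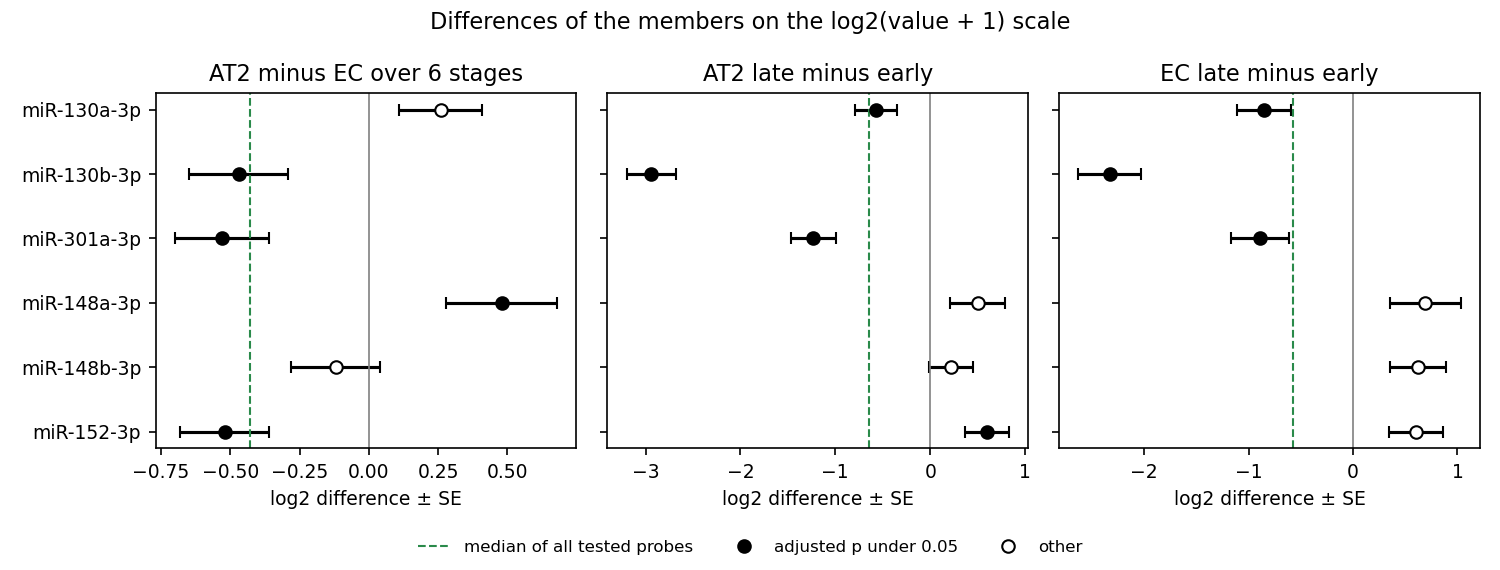
Log2 differences of the 6 members (± SE from the limma fit, log2(value + 1) scale) for AT2 minus EC over 6 stages, AT2 late minus early and EC late minus early, with filled circles for adjusted p under 0.05 and the dashed line at the median of all 302 tested probes. In the late minus early panels the 3 miR-148/miR-152 members lie right of the dashed line by 0.86 to 1.26, and miR-130b-3p lies left of it, at -2.30 relative to it in AT2 and -1.76 in EC. The AT2 minus EC values of miR-130b-3p, miR-301a-3p and miR-152-3p lie near the line and turn positive under scaling to the microRNA total and in DESeq2.

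The tested probes as a whole were lower late than early on the deposited scale, with a median of -0.64 in AT2 cells and -0.57 in EC. The size of that shift depends on how background is handled. Both medians were 0.00 with the common floor, and after background subtraction they were -0.34 in AT2 cells and -0.17 in EC. Shifting samples to 1 median put those medians at 0.24 and 0.04, and calls in AT2 cells, 34 higher and 121 lower as deposited, were then 77 higher and 48 lower. In EC they were 28 higher and 84 lower as deposited, and 52 higher and 23 lower after the shift. The medians of the miR-130/miR-301 members were -1.23 in AT2 cells and -0.89 in EC, and those of the miR-148/miR-152 members 0.50 and 0.62. Relative to the median of all probes, miR-130b-3p stood at -2.30 for AT2 cells and -1.76 for EC, and no more than -1.76 under 5 other scalings. miR-301a-3p stood at -0.58 for AT2 cells and -0.33 for EC, and below 0 under all 5. miR-148a-3p, miR-148b-3p and miR-152-3p were above the median by 1.14, 0.86 and 1.24 in AT2 cells and by 1.26, 1.18 and 1.17 in EC, and stayed above it under all 5, by 0.23 or more. miR-130a-3p stood at 0.08 for AT2 cells, where the other scalings gave -0.75 to 0.08, and at -0.29 for EC. Apart from quantile normalization, these scalings apply 1 factor per sample, which moves all probes nearly alike. They could therefore hardly change a place relative to the median, and that it held under them is no separate support. With the common floor, where the median was 0.00, miR-148a-3p, miR-148b-3p and miR-152-3p were at 0.50, 0.22 and 0.60 in AT2 cells. In EC they were at 0.69, 0.62 and 0.60 there.

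After the shift to 1 median, late minus early was 1.38, 1.10 and 1.49 in AT2 cells and 1.30, 1.22 and 1.20 in EC for miR-148a-3p, miR-148b-3p and miR-152-3p, all called. Under scaling to the microRNA total the same differences were 0.34, 0.06 and 0.44 in AT2 cells and 0.60, 0.53 and 0.51 in EC, none called. In AT2 cells miR-301a-3p kept its call by DESeq2 on the recovered counts (-0.65), but not under the shift or by edgeR. miR-130b-3p was called lower late than early in both cell types under every setting run, with -3.15 to -1.46 in AT2 cells and -3.25 to -1.54 in EC.

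**Figure D3:**
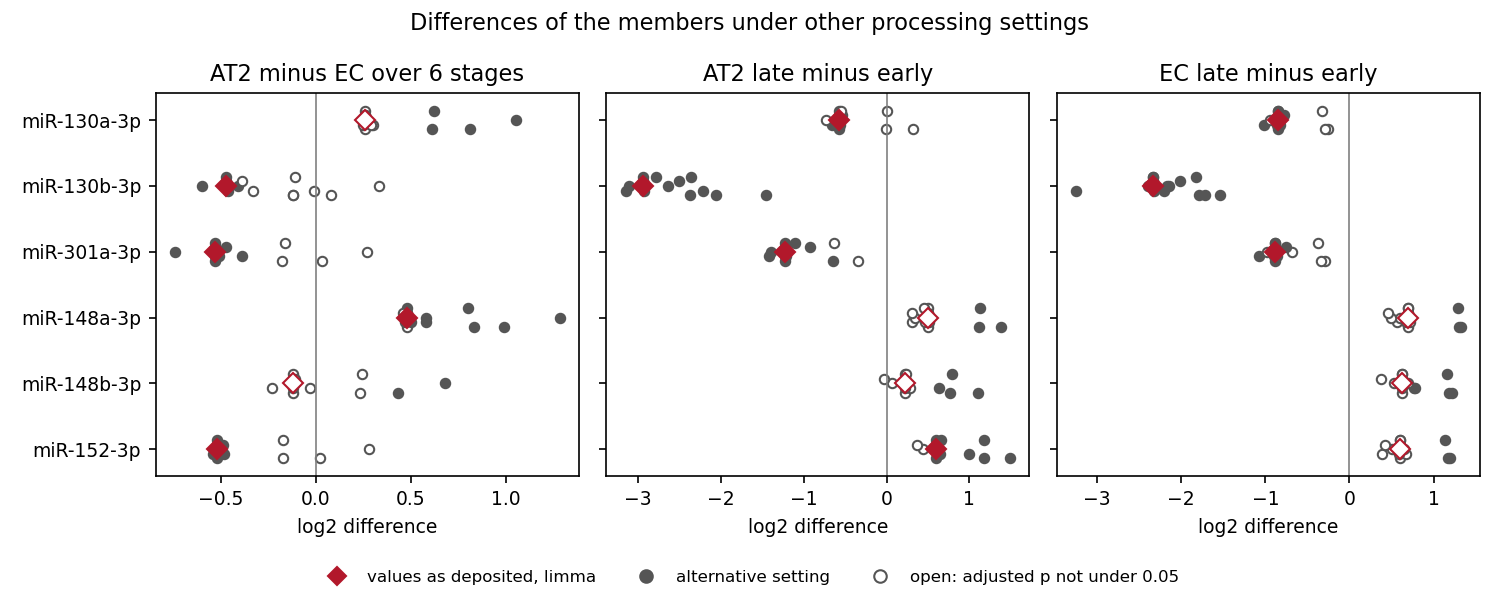
Log2 differences of the 6 members under the deposited scaling (diamonds) and each other processing setting (circles), filled where adjusted p was under 0.05, for AT2 minus EC, AT2 late minus early and EC late minus early. miR-130b-3p stays between -3.15 and -1.46 in AT2 late minus early, while AT2 minus EC of miR-130b-3p, miR-301a-3p, miR-148b-3p and miR-152-3p falls on both sides of 0.

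Ratios between members of the same sample do not depend on the sample's factor. The mean log2 value of the 3 miR-148/miR-152 members minus that of the 3 miR-130/miR-301 members was 0.96 to 2.67 in the 7 late AT2 samples, against -0.59 to -0.20 in the 4 early ones. In EC it was 0.57 to 2.37 in the 6 late samples, against -0.83 to -0.47 in the 3 early ones. At P1 it was -0.20 and -0.42 in AT2 cells, within the early range, and -0.23 in EC, above the early range and below every late sample. Within AT2 cells the ratio was 1.02 and 0.96 at P7, 1.75 and 1.55 at P14, and 2.67, 2.14 and 2.0 at P28. The 3 stages did not overlap in AT2 cells, nor in EC, where the ratio was 0.57 and 0.78 at P7, 0.87 and 1.51 at P14, and 2.13 and 2.37 at P28. In AT2 P28 replicate 3 and both EC P28 samples miR-130b-3p was not above background. With it at the background limit their ratios were 2.07 in the AT2 sample and 1.83 and 2.28 in the EC samples, still above every P14 sample of their cell type. Each member has equal weight in these means, so the change of the ratio includes that of miR-130b-3p, the largest late minus early change of the members (-2.94 in AT2 cells, -2.33 in EC).

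Within the miR-130/miR-301 family, the log2 ratio of miR-130b-3p to miR-130a-3p, its nearest relative in sequence, was -5.49 to -3.86 in late AT2 samples, against -2.13 to -1.70 in early ones, and -4.07 to -2.58 in late EC, against -1.87 to -1.56 in early EC. At P1 it was -2.26 and -3.20 in AT2 cells and -2.26 in EC. Late and early samples did not overlap in either cell type. The lowest late AT2 value (AT2 P28 replicate 3) and both EC P28 values (-3.43 and -4.07) use miR-130b-3p readings not above background. With miR-130b-3p at the limit they were at most -5.29, -2.52 and -3.79, still below every early sample. The log2 ratio of miR-148a-3p to miR-152-3p averaged 2.15 ± 0.43 in AT2 cells and 1.15 ± 0.62 in EC (SD, n = 13 and 10). All AT2 samples lay between 1.45 and 2.86, and EC samples between 0.43 and 1.72 except EC P14 replicate 2, at 2.53. These ratios are descriptions over chosen members and were not tested.

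**Figure D4:**
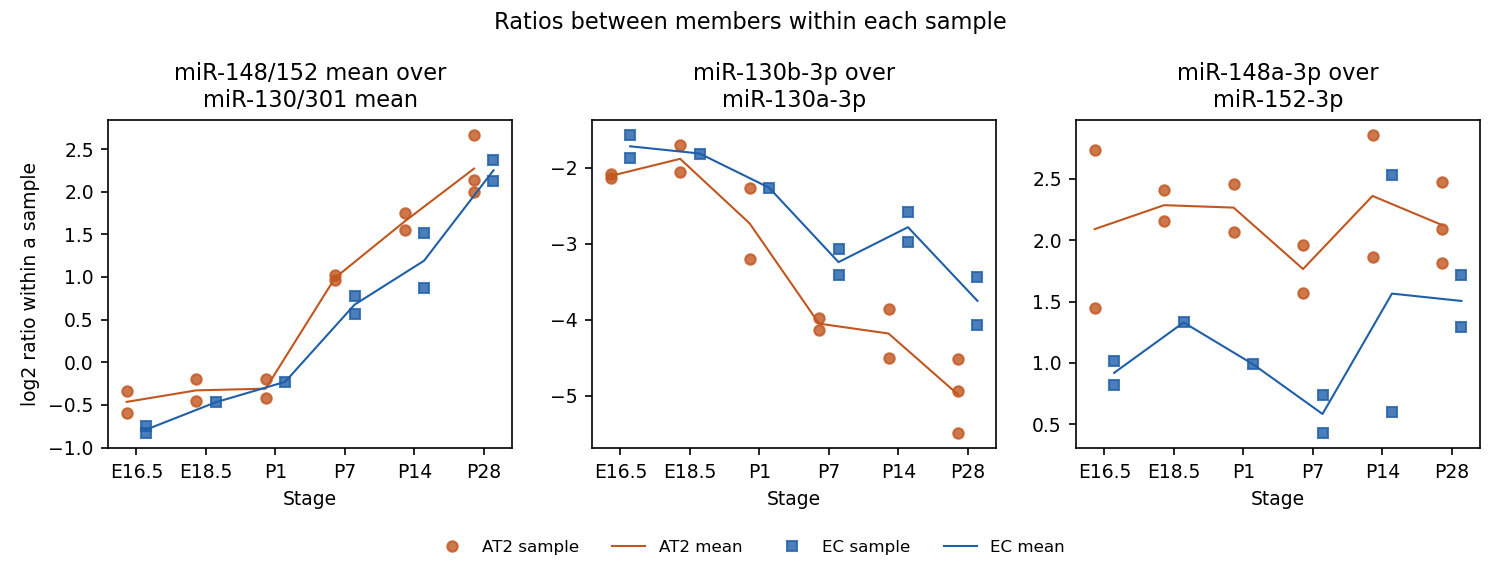
Log2 ratios within each sample against stage, with 1 point per sample, AT2 circles left of EC squares and lines through the means of each stage. The miR-148/miR-152 over miR-130/miR-301 ratio is below 0 in every sample up to P1 and above 0.5 in every later one, and EC P14 replicate 2 (2.53) lies among the AT2 samples in the miR-148a-3p over miR-152-3p panel.

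Between the cell types, miR-148a-3p was higher in AT2 cells under every setting run. Over the 6 stages, 4 of 6 members were called between the cell types on the deposited scale, against 67.2% of all tested probes. miR-148a-3p was higher in AT2 cells (0.48 ± 0.20, limma, adjusted p = 0.0421), as were 19.5% of probes. Lower in AT2 cells, like 47.7% of probes, were miR-130b-3p (-0.47 ± 0.18, limma, adjusted p = 0.0307), miR-301a-3p (-0.53 ± 0.17, limma, adjusted p = 0.0102) and miR-152-3p (-0.52 ± 0.16, limma, adjusted p = 0.00804). All probes had a median of -0.43 in this comparison, which the 3 lower members were within 0.10 of. That median was 0.00 with the common floor and 0.14 after background subtraction. The differences of the 3 lower members turned to 0.33, 0.27 and 0.28 under scaling to the microRNA total and to 0.08, 0.03 and 0.02 by DESeq2, none called, so their direction depends on the scaling. That of miR-130b-3p also depends on how background is handled. It was -0.01 after background subtraction and -0.12 with the common floor, and -0.33 under quantile normalization, none called. The call of miR-130b-3p was also lost without AT2 E16.5, P1, P7 or P14 replicate 2, EC E16.5 replicate 2, EC P7 replicate 1 or EC P28 replicate 1. Of all calls, 29.1% were higher in AT2 cells as deposited, 46.3% after the median shift and 72.7% under scaling to the total.

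miR-148a-3p had values of 1034 to 3628 in AT2 samples (median 1439), against 754 to 2649 in EC samples (median 1216), and the ranges overlapped. Of 9 specimen IDs that an AT2 and an EC sample share, it was higher in the AT2 sample in 7, with a mean log2 difference of 0.42 ± 0.43 (SD). It was higher in AT2 cells under all settings, from 0.46 to 1.28, and relative to the median of all probes by 0.91. It was 0.37 or more with any 1 sample left out, but the call was lost without any of 16 samples, all but AT2 E16.5 replicate 2, P1 replicate 1, P14 replicate 2 and P28 replicates 2 and 3, and replicate 2 of EC E16.5 and EC P14. The call was also lost with a common floor, without the intensity trend and without AT2 P28 replicates 1 and 3. miR-130a-3p did not pass (0.26 ± 0.15, limma, adjusted p = 0.142) but was called at 0.61 to 1.05 under 4 other settings. For miR-148b-3p the difference was -0.12 ± 0.16 (limma, adjusted p = 0.516), with a 95% interval of -0.46 to 0.22, and it turned positive in those same 4 settings.

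In the shared specimen IDs, too, the direction of the other members depended on the scaling. On the deposited scale miR-301a-3p was lower in the AT2 sample in 8 of 9, with a mean log2 difference of -0.64 ± 0.46 (SD), and miR-130b-3p and miR-152-3p in 7 of 9 each (-0.48 ± 0.50 and -0.55 ± 0.44). miR-148b-3p was lower in 6 of 9, and miR-130a-3p was higher in 5 of 9. Under scaling to the microRNA total, miR-130b-3p, miR-301a-3p and miR-152-3p were instead higher in the AT2 sample in 7 of 9 each, with means of 0.26 ± 0.61, 0.10 ± 0.73 and 0.19 ± 0.70, and miR-148b-3p in 8 of 9. After the median shift, miR-301a-3p was lower in the AT2 sample in 7 of 9 (-0.32 ± 0.51), miR-130b-3p and miR-152-3p in 6 of 9 each (-0.16 ± 0.46 and -0.23 ± 0.49), and miR-148b-3p in 4 of 9. miR-148a-3p was higher in the AT2 sample in 8 of 9 under both. These 2 scalings of the shared IDs were added after the data were seen.

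Stage by stage, 3 members were called between the cell types at P7 and 1 at P28. A test of whether a member's cell-type difference varied over the stages called 0 of 6 members, so these calls do not show differences particular to those stages. At P7 miR-130b-3p was 43.2 and 40.4 in AT2 cells, against 119 and 69.6 in EC, a difference of -1.11 ± 0.41 (limma, adjusted p = 0.0396). miR-301a-3p was 449 and 521, against 1047 and 922 in EC (-1.02 ± 0.38, limma, adjusted p = 0.0401). miR-152-3p was 416 and 365, against 935 and 705 in EC (-1.06 ± 0.36, limma, adjusted p = 0.0262). For these 3 members the AT2 and EC samples of P7 did not overlap, as was so in either direction for 83.4% of tested probes. At this stage 44.0% of all probes were called, 31.8% lower, with a median of -0.85, and the 3 differences became 0.24, 0.35 and 0.31 under scaling to the microRNA total. With the common floor those of miR-130b-3p (-0.16) and miR-301a-3p (-1.02) were not called, nor were they after background subtraction (-1.04 and -1.02). That of miR-152-3p kept its call in both settings. All 3 calls were lost under the median shift, quantile normalization, no filter, edgeR and DESeq2, where miR-152-3p was at -0.54, -0.58, -1.06, -0.36 and -0.33. The calls of miR-301a-3p and miR-152-3p were lost without any 1 of the 4 P7 samples, and that of miR-130b-3p without any of them but EC P7 replicate 2, with differences of -1.26 to -0.72.

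At P28 miR-130a-3p was 684, 773 and 805 in AT2 cells, against 374 and 362 in EC, so all AT2 samples lay above both EC samples. At P28 the cell types were separated, in either direction, for 50.7% of tested probes. The difference was 1.03 ± 0.32, or 2.04-fold (limma, adjusted p = 0.0198), where 29.1% of all probes were called and 10.9% were higher. That call was lost without AT2 P28 replicate 2 (1.01) or without either EC P28 sample (1.05 and 1.00). No member was called before birth, at E16.5 (35.8% of probes called) or E18.5 (2.65%), nor at P1 (7.28%) or P14 (21.9%).

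No member's change with age was shown to differ between the cell types. The difference of the changes, AT2 minus EC, was called for 0 of 6 members by limma, 0 at an unadjusted p under 0.05 and 0 by edgeR and DESeq2, against 6.29% of all probes. It was -0.61 ± 0.40 for miR-130b-3p (95% interval -1.46 to 0.23) and 0.29 ± 0.34 for miR-130a-3p (95% interval -0.42 to 0.99). For miR-152-3p it was 0.0020 ± 0.35, with a 95% interval of -0.73 to 0.73. An F-test of whether the cell-type difference varied over the 6 stages called 0 of 6 members and 1.32% of all probes.

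When any difference among the 6 stages was asked for, 3 of 6 members were called in AT2 cells, against 49.0% of all probes. These were miR-130b-3p, miR-301a-3p and miR-152-3p (limma F-test, adjusted p = 1.22e-06, 0.000243 and 0.0417). The call of miR-152-3p was lost under 4 other settings (scaling to the total, with adjusted p = 0.649, no filter, no intensity trend, and without AT2 P28 replicates 1 and 3). It was also lost without any 1 AT2 sample of E18.5, P1, P7 or P14, AT2 P28 replicate 1 or 2, or any 1 EC sample of P7 or P28, with adjusted p up to 0.109 (limma F-test). In EC the 3 miR-130/miR-301 members were called, against 27.2% of all probes, with adjusted p = 0.00862 for miR-130a-3p, 4.94e-05 for miR-130b-3p and 0.0197 for miR-301a-3p (limma F-test). The EC calls of miR-130a-3p and miR-301a-3p were both lost under the median shift, scaling to the total and edgeR, with adjusted p up to 0.156 and 0.153, and without EC E16.5 replicate 2 (limma F-test, 0.0665 and 0.0612). That of miR-301a-3p was also lost without EC P28 replicate 1 or 2 (limma F-test, adjusted p = 0.0523 and 0.137) and with 3 EC samples left out together (0.0861). The AT2 and EC stage means of a member followed similar courses, with Pearson's r over 6 stages of 0.95 for miR-130b-3p, 0.93 for miR-148a-3p, 0.90 for miR-301a-3p, 0.80 for miR-148b-3p, 0.72 for miR-130a-3p and 0.69 for miR-152-3p. The points share the stage and, in most pairs, the specimen ID.

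Ordering the 12 groups of cell type and stage by level placed the E16.5 groups of both cell types highest for miR-130b-3p, with overlapping ranges (260 to 400 in AT2 cells, 363 to 452 in EC). Its lowest groups were P28 of both cell types and P7 and P14 of AT2 cells, and each overlapped its neighbour in the order. miR-130a-3p was likewise highest at E16.5 in AT2 cells and EC, with overlapping ranges, and lowest in EC at P14 and P28, which did not overlap each other. miR-301a-3p was highest in EC at E16.5 (1081 to 1335) and lowest in AT2 cells at P28 (144 to 270), and that lowest group lay apart from its neighbour, EC at P28. For miR-148a-3p the top 4 groups were P28 and P14 of AT2 cells and of EC, each overlapping the next, and the lowest was EC at P1 (808). miR-152-3p was highest in EC at P7 (705 to 935), apart from the next group, and lowest in AT2 cells at P1 (246 and 252), apart from AT2 cells at E18.5. miR-148b-3p was also lowest in AT2 cells at P1, and its 6 highest groups each overlapped the next.

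Correlations between members were above 0 within each family and below 0 between families, with strengths that varied, and were not tested. Across the 12 group means, Pearson's r of log2 values was 0.86 between miR-130b-3p and miR-301a-3p, 0.71 between miR-130b-3p and miR-130a-3p and 0.44 between miR-130a-3p and miR-301a-3p. In the other family it was 0.79 between miR-148b-3p and miR-152-3p, 0.68 between miR-148a-3p and miR-148b-3p and 0.29 between miR-148a-3p and miR-152-3p. Between families every r was below 0, the lowest at -0.81 for miR-301a-3p with miR-148a-3p and the highest at -0.21 for miR-130a-3p with miR-148b-3p. The 12 points share sample factors and specimens. Among other probes, the courses most like that of miR-130b-3p were MIMAT0000374 and MIMAT0009455 (Pearson's r = 0.96 each over the 12 group means), of which MIMAT0009455 was first by Spearman's rho (0.97) and MIMAT0000374 was not among the first 2. The course most like that of miR-148a-3p was MIMAT0004934 (r = 0.93, rho = 0.90).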

How the data were processed

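Total RNA was prepared with the nCounter mouse miRNA kit, per the labels' protocols. How the authors normalized the values or treated background is not given in the sources used here. What was deposited is a signal: in each of 23 columns they are counts times 1 factor (0.296 to 7.93), and 100.0% of 13861 values were whole counts within 0.1 after division. Values below 1 appear as 1 in 9 columns. The control rows named ERCC were not scaled, and their 8 low rows served as negative controls.

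Columns were matched to samples by the descriptions in the labels. The member names come with the rule that chose the 6 identifiers. The files and reference tables pair no identifier with a name, so lists of cell type markers (endothelial, epithelial, mesenchymal and muscle, leukocyte, erythroid), other microRNAs with the shared seed run and the opposite hairpin arms were not matched and are not analysed here. Members, lists and tests were chosen with earlier results of these data known.

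The test was limma 3.58.1 in R 4.3.3 (lmFit and eBayes with an intensity trend) on log2(value + 1), with 1 mean for each of 12 groups. P-values are two-sided and adjusted by Benjamini-Hochberg over 302 probes, with a threshold of 0.05. A group with 1 sample takes its spread from the rest. P1 enters neither the early nor the late stages. The numbered specimen IDs of AT2 and EC samples were checked as pairs. Deviations from group means correlated at 0.21 to 0.308, but at -0.02 for AT2 P28 replicate 3 with EC P28 replicate 2. The fit with a replicate block gave a consensus correlation of 0.231. In groups of 2 samples the deviations mirror each other, so those pairs are not all separate checks. The labels do not say that a shared ID is 1 animal, so no block was used in the main test. Named probes outside the families are the most correlated by Pearson's r. Alternatives were other scalings, filters, a pseudocount of 10, background subtraction, edgeR 4.0.16, DESeq2 1.42.0 (both on the recovered counts), a replicate block and samples left out. The fits were tested on simulated counts. Added after seeing the data were the F-test of the cell-type difference over stages and the setting without AT2 P28 replicates 1 and 3.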

Additional observations from a re-analysis of the deposited data

How the results depend on the processing

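The fall of miR-130b-3p in both cell types kept its direction and its call under every setting run and on leaving out any 1 sample. For AT2 minus EC, 2 members were called instead of 4 under the median shift, the common floor, edgeR, and without AT2 P28 replicates 1 and 3, and 2 to 4 on leaving out 1 sample. These were not always the same members: the 3 lower calls were lost under the median shift, scaling to the total, edgeR and DESeq2. The 2 called under the median shift and edgeR were miR-148a-3p and miR-130a-3p, which was gained, and scaling to the total and DESeq2 (3 called) gained miR-148b-3p as well. For AT2 late minus early, 2 instead of 4 were called under scaling to the total and with no filter, and 2 to 4 with 1 sample left out. For EC late minus early, 1 instead of 3 was called under scaling to the total, and 1 to 4 with 1 sample left out, the 1 being without EC E16.5 replicate 2. For any stage difference, 5 were called in AT2 cells under the median shift and quantile normalization instead of 3 (2 to 4 with 1 sample left out), and 1 in EC under scaling to the total and edgeR instead of 3 (1 to 3). Over the single stages, AT2 minus EC gave 1 call instead of 4 under the median shift, quantile normalization, scaling to the total, no filter and edgeR, 2 under the common floor and DESeq2, and 1 to 5 with 1 sample left out. The cause of these losses was not tested. No member was called for the difference of the changes in any of these settings (0 throughout). With the replicate block by specimen ID, the called members were 4 between the cell types, 4 in AT2 late minus early and 3 in EC late minus early, as without it.

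Directions turned as follows. AT2 minus EC became 0.33 for miR-130b-3p, 0.27 for miR-301a-3p, 0.28 for miR-152-3p and 0.68 for miR-148b-3p under scaling to the total, and 0.08, 0.03, 0.02 and 0.43 by DESeq2. For miR-148b-3p it was 0.23 under the median shift and 0.24 by edgeR. At P7 miR-130b-3p, miR-301a-3p and miR-152-3p became 0.24, 0.35 and 0.31 under scaling to the total. In AT2 late minus early, miR-130a-3p became 0.32 under the median shift and 0.01 by edgeR, and miR-148b-3p became -0.03 with P1 counted as late and -0.01 without AT2 E16.5 replicate 2 (-0.01 to 0.45 with 1 sample left out). The difference of the changes, called for none, became 0.08 with the common floor and 0.11 after background subtraction for miR-130b-3p. For miR-148a-3p it became 0.09 under the median shift and 0.01 without 3 EC samples (replicate 1 of P1 and replicate 2 of both P14 and P28), and -0.42 to 0.04 with 1 sample left out. For miR-152-3p, at 0.0020, it became -0.07 under scaling to the total, -0.02 after background subtraction, -0.0019 with a pseudocount of 10, -0.05 without the 3 EC samples and -0.06 with P1 counted as late, and -0.18 to 0.26 with 1 sample left out. Precision is limited by 1 to 3 samples per group and, for miR-130b-3p at P28, by counts near background.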
